A study of Mus musculus with 3 samples.

Results

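The respiratory chain and the ATP synthase were followed here through the messenger RNAs of their nuclear-encoded subunits in mouse CD8 T cells. The members are all probe sets whose platform annotation gives a single gene symbol beginning with Nduf, Sdha to Sdhd, Uqcr, Cox4 to Cox8 or Atp5. They came to 185 of the 45101 probe sets on the array and to 94 of its 18194 genes. By the prefix of the symbol, 36 of the 94 genes were assigned to complex I, 4 to complex II and 8 to complex III. Another 17 were assigned to complex IV and 17 to complex V. The remaining 12 carry the names of assembly factors (8 Ndufaf and 4 Sdhaf genes). Ndufa4 is thus counted under complex I and Cox7a2l under complex IV. A further 10 probe sets that list several symbols were left out.

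The study hybridised 3 one-colour arrays, 1 per group, each with cRNA from CD8 T cells labelled as coming from MLN, which in this study is the mesenteric lymph node. All 3 groups carry the CL4-TCR, a transgenic T cell receptor specific for influenza hemagglutinin (HA). The CL4-TCR group names this receptor alone and is described below as without HA, and both the VILLIN-HA/CL4-TCR group and the Villin-HA + CL4-TCR group add HA under the villin promoter, which is active in gut epithelium. The design lists CD8 T cells beside a population activated in vivo and a regulatory one generated in vivo, but no label ties an HA group to the activated or to the regulatory cells or gives age, strain background or number of animals per array. With 1 array in each group there is no replicate error, so every difference below is a difference between arrays and carries no test.

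Complex I (NADH dehydrogenase) and complex II (succinate dehydrogenase) feed electrons from NADH and succinate to ubiquinone, complex III (cytochrome bc1) passes them to cytochrome c, and complex IV (cytochrome c oxidase) passes them to oxygen. The proton gradient built on the way drives complex V, the ATP synthase. Resting lymphocytes draw much of their ATP from this route, and T cells that are activated enlarge both glycolysis and mitochondrial mass.

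Values are MAS5 signals, a linear brightness per probe set that the authors' software scaled to a common trimmed mean on each array. Each gene is represented by its probe set with the highest mean signal, and a floor of 31.7, the median of all values, stands in for any lower value. A gene is called measured where its higher value lies above the floor, and counted where 2 arrays differ by at least 2-fold. Signals are listed throughout in one order, first CL4-TCR, then VILLIN-HA/CL4-TCR, then Villin-HA + CL4-TCR, and differences are on the log2 scale.

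The 11 CD8 T cell markers on the array summed to signals of 31569, 29086 and 29862. Gene by gene their median difference from CL4-TCR was -0.41 on VILLIN-HA/CL4-TCR, where Cd2, an adhesion receptor of T cells, was counted lower at -1.69, and -0.19 on Villin-HA + CL4-TCR. Cd8a, the CD8 alpha chain, gave 2714, 2893 and 3149, while Cd4 lay below the floor on every array. Of the 3 CD4 T cell markers, 1 lay above the floor on CL4-TCR, at 60.9, and 0 on either other array. Their summed signals were 74, 51.6 and 46.6. The ratio of the 3' to the 5' control probe set of Gapdh was 18.4, 46.2 and 3.35, that of Actb 1.98, 2.46 and 1.80. Summed signals of 18 skeletal muscle markers were 393, 325 and 7169, those of 7 neutrophil markers 131, 128 and 1852, those of 7 stromal and endothelial markers 115, 106 and 873, and those of 11 macrophage and dendritic cell markers 309.5, 1621 and 1233. For 6 B cell markers they were 311, 642 and 407, and for 6 gut epithelial markers, with Vil1 (villin) below the floor throughout, 162, 101 and 170. The part these markers and the RNA quality controls have in the differences below was not tested. Fewer cells of one type and less RNA per cell cannot be told apart in these bulk samples.

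Most subunit messages were lowest in the cells without HA. Of the 94 members, 87 lay above the floor on all 3 arrays, and 67 of these 87 had their lowest signal on the CL4-TCR array, a share of 77.0%. Among all genes above the floor on the 3 arrays the share was 32.2% of 9014. The 82 subunit genes had median signals of 1100.1, 1743 and 1854. Only 2 members, Cox4i2 and Cox7b2, lay below the floor everywhere.

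**Figure D1:**
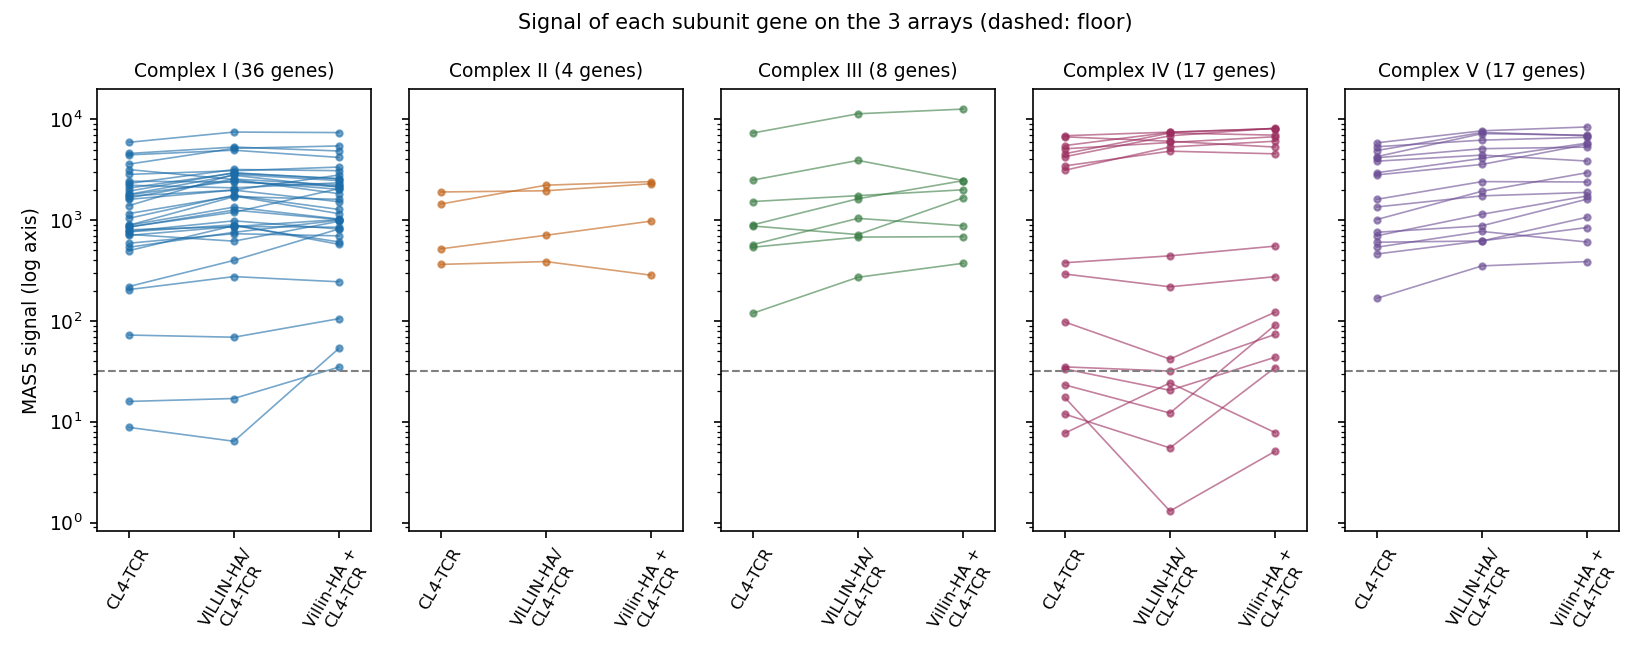
MAS5 signal (log axis) of each of the 82 subunit genes on the 3 arrays, 1 line per gene and 1 panel per complex, with the floor of 31.7 as a dashed line. Most lines climb from the CL4-TCR array to the others, all 17 in complex V, and the lines near or below the floor in complex IV belong to isoforms of muscle, testis or lung.

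The differences were broad and small rather than confined to a few genes. Between VILLIN-HA/CL4-TCR and CL4-TCR, 88 members were measured, 75 of them differed upward by any amount (85.2%), and among all 11260 measured genes 47.4% did so. The members' median difference was 0.43, or 1.35-fold, with quartiles of 0.20 and 0.62, beside a median of -0.04 over all measured genes. At 2-fold, 4 members were counted higher, beside 7.43% of all genes, and 1 lower, beside 6.63%. The members counted higher were Ndufv2, Uqcr10, Atp5l and Ndufaf2, of which Atp5l and Ndufaf2 stayed past 2-fold under each of 7 other processing settings. At 1.5-fold, 28 members were higher and 2 lower, beside 16.4% and 17.3% of all genes.

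Between Villin-HA + CL4-TCR and CL4-TCR, 92 members were measured and 79 differed upward (85.9%), beside 53% of 12196 genes. Their median was 0.42, or 1.34-fold, with quartiles of 0.24 and 0.83, beside 0.06 over all genes. Here 12 members were counted higher at 2-fold, beside 11.9% of all genes, and 0 lower, beside 9.53%. They were Ndufa4, Ndufa9, Uqcr10, Uqcrh, Cox6a2, Cox7a1, Atp5b, Atp5e, Atp5k, Atp5l, Atp5o and Ndufaf2, and Ndufa4, Ndufa9, Uqcrh, Atp5k and Atp5l stayed past 2-fold under each of the 7 settings. At 1.5-fold the counts were 33 higher and 2 lower, beside 23.6% and 20.5%. Both comparisons use the same CL4-TCR array, so their likeness is no independent support. Without any floor or filter, over all 94 members on a log2(signal + 16) scale, 77 and 80 differed upward, with medians of 0.40 and 0.41.

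Other bright genes were split more evenly. Of the 65 subunit genes with a mean signal of at least 500, 59 exceeded CL4-TCR in VILLIN-HA/CL4-TCR and 57 in Villin-HA + CL4-TCR, with medians of 0.45 and 0.40. Among 2897 other genes of that brightness, 53.9% and 47.3% were higher, with medians of 0.04 and -0.05. Scaling the arrays to the same median moved the all-gene median for Villin-HA + CL4-TCR from 0.06 to -0.14 and the members' median from 0.42 to 0.21. It also moved the share of all 2-fold calls that were higher from 55.6% to 38.2%. With that scaling 54 of the 75 subunits above the floor on all arrays were lowest on the CL4-TCR array, against 59 as deposited.

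**Figure D2:**
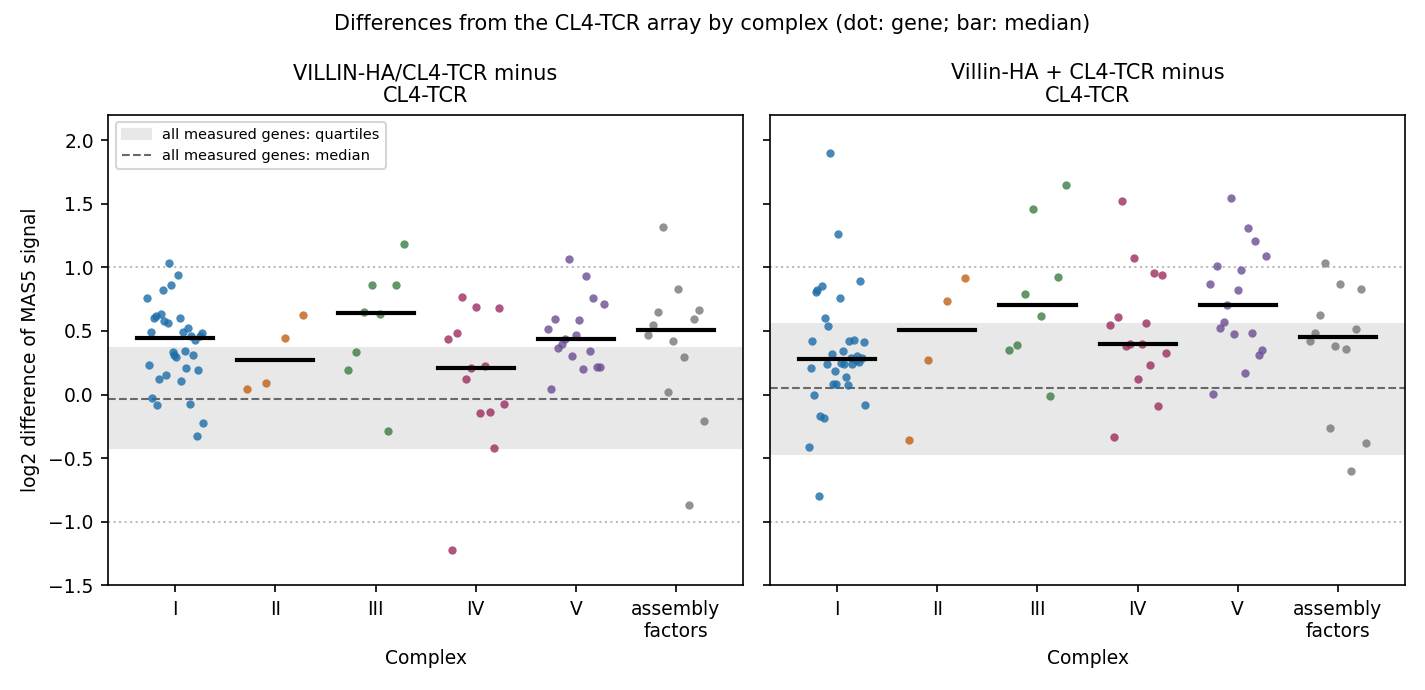
Log2 difference of each measured member from the CL4-TCR array (dots) with the median of each complex (bars), for VILLIN-HA/CL4-TCR on the left and Villin-HA + CL4-TCR on the right. The grey band and dashed line give the quartiles and median of all measured genes, dotted lines mark 2-fold, and all complex medians lie above the dashed line.

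Many nuclear genes of the respiratory chain are known targets of the nuclear respiratory factor NRF1 and of the ETS-family factor GABP, whose motifs lie close to their start sites. RefSeq promoters (GRCm38.p6) were matched for 78 of the 94 members, and the 250 bases before the start were searched on both strands. The NRF1 motif, searched as GCGCA and GCGC with any 1 base between them, stood in 11 of the 78 (14.1%), beside 3.86% of 27025 promoters of all genes and 5.30% of 17491 protein-coding ones. The ETS motif CCGGAAG stood in 15 (19.2%), beside 7.05% and 9.12%. The YY1 motif AAGATGGC stood in 0 of the members and in 1.59% of all promoters, and the letters TATAAA in 7 members (8.97%) and in 13.0% of all promoters. Members' windows had a median GC content of 57.6% and 15 CpG, against 52% and 6 for all genes, so base composition differs along with the motif shares.

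The windows of 40 bases below, cut from the upstream regions of members in complexes I, II, IV and V, show the NRF1 motif in capitals within its surroundings, each written 5′ to 3′ on the strand of its gene. In Ndufa8 the motif reads on the opposite strand.
Ndufa5, NRF1, chr6:24527692-24527731, minus strand: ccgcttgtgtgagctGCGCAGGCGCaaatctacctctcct
Ndufa8, NRF1, chr2:36049344-36049383, minus strand: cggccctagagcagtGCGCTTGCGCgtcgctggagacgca
Ndufs5, NRF1, chr4:123718260-123718299, minus strand: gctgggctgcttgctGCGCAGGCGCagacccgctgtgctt
Sdha, NRF1, chr13:74350314-74350353, minus strand: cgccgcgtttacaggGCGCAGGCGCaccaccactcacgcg
Sdhd, NRF1, chr9:50603904-50603943, minus strand: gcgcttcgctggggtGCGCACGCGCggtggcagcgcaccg
Cox6a1, NRF1, chr5:115349096-115349135, minus strand: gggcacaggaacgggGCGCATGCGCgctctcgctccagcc
Atp5g2, NRF1, chr15:102671065-102671104, minus strand: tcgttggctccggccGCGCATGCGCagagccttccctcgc
Atp5h, NRF1, chr11:115420036-115420075, minus strand: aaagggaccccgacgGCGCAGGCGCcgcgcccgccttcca
Atp5k, NRF1, chr5:108434425-108434464, minus strand: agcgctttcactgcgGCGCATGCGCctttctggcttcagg

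The next windows show the ETS motif, in capitals and here read on the opposite strand as CTTCCGG, upstream of members that differed by at least 2-fold from the CL4-TCR array.
Uqcrh, ETS, chr4:116075071-116075110, minus strand: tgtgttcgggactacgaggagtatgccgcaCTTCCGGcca
Atp5e, ETS, chr2:174464181-174464220, minus strand: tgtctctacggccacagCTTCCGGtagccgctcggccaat
Atp5l, ETS, chr9:44920932-44920971, minus strand: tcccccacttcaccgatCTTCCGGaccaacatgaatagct

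Members with and without a motif were set side by side. For VILLIN-HA/CL4-TCR the median was 0.44 over 10 measured members with the NRF1 motif and 0.43 over 65 without it, and for Villin-HA + CL4-TCR it was 0.27 over 11 and 0.48 over 66. For the ETS motif the medians were 0.46 and 0.43 in the first comparison and 0.42 and 0.43 in the second. A match describes letters only and is not a bound site, and its absence says only that these letters are not in the window.

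Complex I is the largest of the complexes. On VILLIN-HA/CL4-TCR 29 of its 34 measured genes differed upward with a median of 0.44, and on Villin-HA + CL4-TCR 30 of 36 did with a median of 0.28. With arrays scaled to the same median the latter was 0.081, beside -0.14 over all genes. Of the 36, Ndufa4l2 and Ndufb4 were measured only through the Villin-HA + CL4-TCR signal, so they could only be upward there. Without probe sets whose identifiers end in _s_at, _x_at or _a_at, the VILLIN-HA/CL4-TCR median was 0.19. Of the 34 genes above the floor on all arrays, 22 were highest on VILLIN-HA/CL4-TCR and 10 on Villin-HA + CL4-TCR, or 26 and 6 after scaling to the same median. Among all genes these counts were 2558 and 3006 of 9014 as deposited, and 3481 and 1933 of 9031 after that scaling. The quartiles of its differences lay at 0.20 and 0.60 on the first and at 0.12 and 0.46 on the second. At 2-fold, Ndufv2 was counted on the first (2.94% of the measured genes of the complex), beside 7.43% of all genes. Ndufa4 and Ndufa9 were counted on the second (5.56%), beside 11.9%.

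Among the core subunits that carry the redox centres, Ndufv2, an iron-sulfur protein of the NADH-binding module, had signals of 1389, 2839.7 and 2463. Its CL4-TCR value was the lowest, and it stood 1.03 and 0.83 above it on the other arrays, with 3 probe sets that spanned 1.03 to 1.61 and 0.83 to 1.38. Ndufv1, its partner that binds NADH and the flavin, had 2430.5, 2382 and 2163, while another of its 3 probe sets gave -0.42 and 0.84. Ndufs1, the largest iron-sulfur subunit, gave 773, 983 and 814, and Ndufs3, of the ubiquinone-reducing arm, 704, 864 and 849.5. Both were lowest on the CL4-TCR array by small margins, with differences of 0.35 and 0.07 for Ndufs1 and of 0.29 and 0.27 for Ndufs3. Ndufs8, another iron-sulfur subunit, gave 1779.8, 2444 and 2019, but its 6 probe sets ran from -1.06 to 0.61 in the first comparison.

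Ndufs7, which holds the last iron-sulfur cluster before ubiquinone, went the other way with 3169, 2527 and 1826. It was highest without HA and lowest on Villin-HA + CL4-TCR, with differences of -0.33 and -0.80. Its 2 probe sets shared this direction, at -0.33 to -0.31 and -0.80 to -0.58. Across the 19 core genes measured over all complexes, 16 and 15 differed upward in the 2 comparisons with CL4-TCR, with medians of 0.34 and 0.39.

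The accessory subunits, which surround the core and steady its assembly, held its widest upward differences on Villin-HA + CL4-TCR. Ndufa9, a subunit near the ubiquinone site, had 856, 1196 and 2052, a difference of 1.26 between Villin-HA + CL4-TCR and CL4-TCR. Ndufa4 gave 219, 398 and 817, or 0.86 and 1.90 above the CL4-TCR array. Ndufa4 is named after complex I but is known as a subunit of cytochrome c oxidase. It was the member with the highest difference in that comparison, at 3.73-fold, and the 3 arrays were well spaced.

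Ndufb8, of the membrane arm, had 888, 1707 and 1606, with a second probe set at -0.10 and -0.43 where the first was 0.94 and 0.85. Ndufb2 and Ndufa8, both also accessory, gave 497, 880.3 and 607 and 1041, 1764 and 1274, each highest on VILLIN-HA/CL4-TCR. Ndufs4, a subunit of the NADH-binding arm that is phosphorylated, gave 538, 756 and 997, with 4 probe sets from -0.20 to 1.44 for Villin-HA + CL4-TCR. Ndufv3, a small subunit of the NADH-binding module, gave 1604, 1985 and 2800.2, the highest value on Villin-HA + CL4-TCR.

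Below the CL4-TCR level, Ndufb10, a membrane-arm subunit, had 721, 618 and 972 and was lower on VILLIN-HA/CL4-TCR only. Ndufab1, the acyl carrier protein that complex I shares with fatty acid synthesis, had 765, 898 and 575 and 3 probe sets from -1.68 to -0.23 on Villin-HA + CL4-TCR. Ndufa10, of the membrane arm, gave 1732, 1982 and 1521. For these genes the arrays with HA lay on opposite sides of the CL4-TCR value. Ndufb4, an accessory subunit of the membrane arm, came above the floor on Villin-HA + CL4-TCR alone, with 15.9, 17 and 34.9.

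Complex II, which links the chain to the citric acid cycle, showed upward differences for 4 of 4 genes on VILLIN-HA/CL4-TCR (median 0.27) and for 3 of 4 on Villin-HA + CL4-TCR (median 0.51). Sdhb, its iron-sulfur subunit, had 1441, 2218 and 2406, and Sdhd, a membrane anchor, 518, 707 and 977. Both were lowest without HA, by 0.62 and 0.74 for Sdhb and by 0.45 and 0.91 for Sdhd. Sdha, the flavoprotein that oxidises succinate, had 1899.5, 1953 and 2293, while another of its probe sets lay at -1.40 on Villin-HA + CL4-TCR. Sdhc, the other anchor, had 364, 388 and 284 and was lowest on Villin-HA + CL4-TCR, -0.36 from CL4-TCR. No gene of this complex reached 2-fold.

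Complex III had the highest median on VILLIN-HA/CL4-TCR, 0.64 with 7 of 8 genes upward, and 0.70 with 7 of 8 on Villin-HA + CL4-TCR. Uqcrh, the acidic hinge protein that helps cytochrome c dock, had 897, 1628 and 2459.9. It was lowest without HA and highest on Villin-HA + CL4-TCR, at 0.86 and 1.46, and its second probe set gave 1.07 and 1.65. Uqcr10, a small subunit of the complex, had 119, 271 and 373, or 2.27-fold and 3.13-fold the CL4-TCR value. Uqcrb, which binds near the ubiquinone site, had 7303, 11329.8 and 12607, and Uqcrq, another small subunit, 571, 1039.8 and 878. Both were again lowest on the CL4-TCR array.

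The catalytic and core proteins of complex III were less uniform. Uqcrfs1, the Rieske iron-sulfur protein, had 1526, 1748 and 1996, a small climb of 0.20 and 0.39. Uqcrc1, a core protein, had 874, 718 and 1662, whereas Uqcrc2, the other core protein, had 2490.5, 3908 and 2468. Uqcrc1 was thus high on Villin-HA + CL4-TCR alone and Uqcrc2 highest on VILLIN-HA/CL4-TCR. VILLIN-HA/CL4-TCR minus the other HA array gave -1.21 for the first and 0.66 for the second. Uqcrc1 has a single probe set, and both probe sets of Uqcrc2 were highest on VILLIN-HA/CL4-TCR. The second probe set of Uqcrc2 also lay 0.40 above CL4-TCR on Villin-HA + CL4-TCR. Uqcr11, another small subunit, had 538, 678 and 685.

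Complex IV differed least on VILLIN-HA/CL4-TCR, with 8 of 13 measured genes upward and a median of 0.21. Without probe sets whose identifiers end in _s_at, _x_at or _a_at that median was 0.066. On Villin-HA + CL4-TCR 13 of 15 were upward with a median of 0.40. Cox6a2 and Cox8b were measured there only through the Villin-HA + CL4-TCR signal, so they could only be upward. Cox6b2 was measured between VILLIN-HA/CL4-TCR and CL4-TCR only through the CL4-TCR signal, so it could only be lower. These counts thus rest partly on the filter. Of the 12 complex IV genes above the floor on all 3 arrays, 8 were lowest on CL4-TCR. On VILLIN-HA/CL4-TCR all the upward values were those of widely expressed subunits. Cox5b, a zinc-binding subunit, had 4250.3, 6855 and 8159, and Cox7a2, the liver-type isoform found in most tissues, 3122, 5308 and 6055. On both the CL4-TCR value was lowest, by 0.69 and 0.94 and by 0.77 and 0.96. The 5 probe sets of Cox5b above the floor ran from -0.06 to 0.95 and from 0.21 to 1.07. Cox5a gave 5484, 7412 and 8085, and its 3 probe sets stayed within 0.43 to 0.51 and 0.56 to 0.61. Cox4i1, the subunit through which ATP inhibits the enzyme, had 5089.7, 5883 and 6706, and Cox6b1, which caps the face turned to cytochrome c, 4549, 7299.7 and 6957.

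Cox7a2l, a factor that joins complexes III and IV into supercomplexes, had 6689.7, 6048 and 5298, highest without HA, with differences of -0.15 and -0.34. Cox7c, a small subunit, gave 292, 218 and 274. Cox6a1, the isoform of most tissues, gave 6862, 7458 and 8075, a difference of 0.23 on Villin-HA + CL4-TCR. The small subunits Cox6c and Cox8a gave 3447, 4822 and 4540.0 and 378, 442 and 552, both lowest without HA.

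A set of complex IV isoforms and Ndufa4l2 belong to muscle, testis, lung or hypoxic cells, and these are described apart from their widely expressed partners. Of the 8 such genes on the array, 3 lay above the floor on CL4-TCR, 2 on VILLIN-HA/CL4-TCR and 6 on Villin-HA + CL4-TCR, with summed signals of 235, 144 and 431. Cox6a2, the heart and skeletal muscle form, had 23.2, 12.2 and 91, at least 2.87-fold higher on Villin-HA + CL4-TCR, since both other arrays lay under the floor. Cox7a1, also a muscle form, had 35, 31.8 and 73.5, a difference of 1.07. Cox8c, known from testis, had 97.6, 41.8 and 122 and was the only member counted lower on VILLIN-HA/CL4-TCR, at -1.22. Ndufa4l2, Cox6b2 and Cox8b passed the floor on Villin-HA + CL4-TCR with 8.8, 6.4 and 53.6, with 33.4, 20.5 and 43.6 and with 11.9, 5.5 and 34.5.

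Cox6a2 and Cox7a1 were the isoforms counted higher on Villin-HA + CL4-TCR, and skeletal muscle markers were higher on the same array. Of the 18 skeletal muscle markers, 4, 4 and 17 lay above the floor on the 3 arrays, and 16 of the 17 measured were counted higher on Villin-HA + CL4-TCR than on CL4-TCR. Acta1, skeletal muscle actin, gave 23.7, 41.6 and 1191 and Ckm, muscle creatine kinase, 7.6, 11 and 555. The part of these markers in the values of the isoforms and of the other subunits was not tested. Leaving out the isoforms cannot settle it for the other subunits, whose values stay as they are. With the 8 isoform genes left out, the counts for Villin-HA + CL4-TCR fell from 12 to 10 members higher and the median over the other 74 subunits was 0.41. On VILLIN-HA/CL4-TCR 65 of the 73 measured were upward with a median of 0.43.

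**Figure D3:**
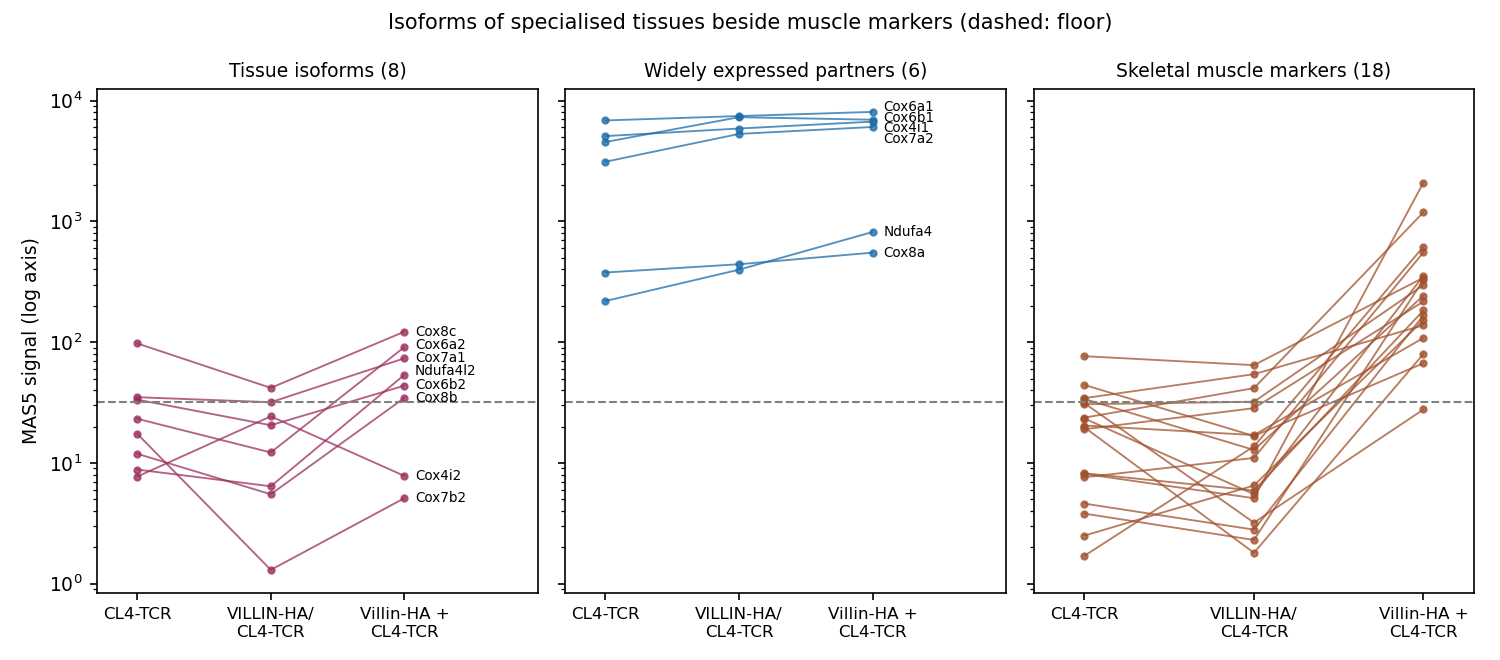
MAS5 signal (log axis) on the 3 arrays of 8 isoform genes of specialised tissues, 6 widely expressed partners and 18 skeletal muscle markers, with the floor as a dashed line. On Villin-HA + CL4-TCR 6 isoforms and 17 muscle markers lie above the floor, against 2 and 4 on VILLIN-HA/CL4-TCR, and signals of different genes are not comparable in height.

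Complex V, the ATP synthase, was lowest without HA in the probe set that represents each gene. All 17 of its genes were lowest on the CL4-TCR array as deposited, 15 of 17 with arrays scaled to the same median and 16 after quantile normalization. For Atp5c1, Atp5d, Atp5g2 and Atp5j2 another probe set lay below its CL4-TCR value on VILLIN-HA/CL4-TCR. For Atp5c1 and Atp5g2 it did so on Villin-HA + CL4-TCR too. The median differences were 0.43 on VILLIN-HA/CL4-TCR and 0.71 on Villin-HA + CL4-TCR. Of these 17, 12 were highest on Villin-HA + CL4-TCR and 5 on VILLIN-HA/CL4-TCR, or 7 and 10 after scaling to the same median. Among all genes the counts in this order were 3006 and 2558 of 9014, or 1933 and 3481 of 9031 after that scaling. At 2-fold, 1 of 17 was counted higher in the first comparison, beside 7.43% of all genes, and 5 of 17 in the second, beside 11.9%.

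In the catalytic head, Atp5b, the beta subunit that makes ATP, had 2806, 3563 and 5645, and Atp5a1, the alpha subunit, 4147, 5103 and 5292. Atp5b was 2.01-fold higher on Villin-HA + CL4-TCR, and Atp5a1 differed by 0.30 and 0.35. Atp5c1, the rotating gamma shaft, gave 4258, 7205 and 6949.5, with a second probe set at -0.18 and -0.95 against 0.76 and 0.71. Atp5e, the epsilon subunit of the central stalk, had 757, 878 and 1614, near level on VILLIN-HA/CL4-TCR and 1.09 higher on Villin-HA + CL4-TCR.

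In the peripheral stalk, Atp5o, the protein that ties it to the head and confers oligomycin sensitivity, had 698, 1143 and 1734. The arrays were evenly spaced, at 0.71 and 1.31, and its 2 probe sets spanned 1.05 to 1.31 in the second comparison. Atp5pb and Atp5h, the b and d subunits of the stalk, gave 4894, 7399 and 6854 and 5338, 6206 and 6618. Both were lowest without HA and close together on the HA arrays.

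In the membrane part, the c ring that turns with the protons is encoded by Atp5g1, Atp5g2 and Atp5g3, which make the same mature protein. They had 538, 771 and 606, 1349, 1739 and 1882 and 5837, 7681 and 8384, with differences on VILLIN-HA/CL4-TCR of 0.52, 0.37 and 0.40. On Villin-HA + CL4-TCR they were 0.17, 0.48 and 0.52, so none reached 2-fold. The small subunits e and g, which hold the enzyme in dimers, stood further apart. Atp5k (e) had 1013, 1932 and 2951 and Atp5l (g) 168, 351 and 388, with differences of 0.93 and 1.54 for the first and 1.07 and 1.21 for the second. All 3 probe sets of Atp5k were above 0 in both comparisons, at 0.93 to 1.06 and 1.16 to 1.54. Atp5md and Atp5mpl, small proteins of the membrane part, had 461, 622 and 844 and 603, 620.5 and 1068, and Atp5j2, the f subunit, 2949, 4086 and 5800.2. These were highest on Villin-HA + CL4-TCR, by 0.87, 0.82 and 0.98 over the CL4-TCR array. Atp5d, the delta subunit of the central stalk, had 3839, 4411 and 3849.5, the smallest margin of the complex on Villin-HA + CL4-TCR, and Atp5j, of the peripheral stalk, 1607, 2407 and 2387.

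The 12 assembly factors among the members had a median of 0.51 on VILLIN-HA/CL4-TCR with 10 upward, and of 0.45 on Villin-HA + CL4-TCR with 9 upward. Ndufaf2, a chaperone of late complex I assembly, had 96.8, 242 and 198, or 2.49-fold and 2.05-fold the CL4-TCR value. Ndufaf5, which modifies Ndufs7, had 189.6, 104 and 125 and was lower on both HA arrays, at -0.87 and -0.60. Ndufaf4, another complex I chaperone, had 838, 1315 and 642, so it was high on VILLIN-HA/CL4-TCR and low on Villin-HA + CL4-TCR, and its 2 probe sets lay at -1.76 to -0.38 in the second comparison.

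Between the HA arrays the members were split. Of 92 measured, 42 were higher on VILLIN-HA/CL4-TCR (45.7%), beside 46.3% of 12081 genes, with a median of -0.09 that turned to 0.20 when the arrays were scaled to the same median. At 2-fold 1 member was counted higher, beside 6.13% of all genes, and 5 lower, beside 8.95%. At 1.5-fold 4 were higher and 16 lower, beside 16.4% and 20.8%. Scaling to the same median also moved the share of all 2-fold calls that were higher from 40.7% to 67.3%. The member counted higher was Ndufaf4, at 1.03. Those counted lower were Ndufa4 (-1.04), Uqcrc1 (-1.21), Cox7a1 (-1.21), Cox8c (-1.55) and Cox6a2, the last at least 2.87-fold lower. Complex I had a median of 0.13 in this comparison, or -0.12 without probe sets whose identifiers end in _s_at, _x_at or _a_at. The 2897 other genes with a mean signal of at least 500 also had a median of 0.13. Of these, 59.5% were higher on VILLIN-HA/CL4-TCR, beside 66.7% of complex I. Complexes II to V had medians of -0.17, -0.17, -0.19 and -0.13. Those of complexes II to V turned to 0.089, 0.091, 0.043 and 0.14 under the same-median scaling.

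The agreement between probe sets of one gene gives a measure of spread between probe sets on the same arrays. It holds no variation between replicate arrays or samples. For 47 members with several probe sets above the floor, the pooled SD between them was 0.35 on VILLIN-HA/CL4-TCR and 0.47 on Villin-HA + CL4-TCR, beside member medians of 0.43 and 0.42. A single gene's difference of that size is therefore close to the spread between probe sets. All probe sets of a gene had the same sign in 33 and 34 of the 47. Their values spread over more than 1 in 6 and 10 genes, among them Ndufab1, Sdha, Ndufb2, Ndufb8, Ndufs4, Atp5c1 and Ndufaf4. The upward shift was also present in the probe sets not chosen to represent a gene, where 52 of 73 and 58 of 74 were above 0, beside 43.3% and 47.5% of all probe sets.

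**Figure D4:**
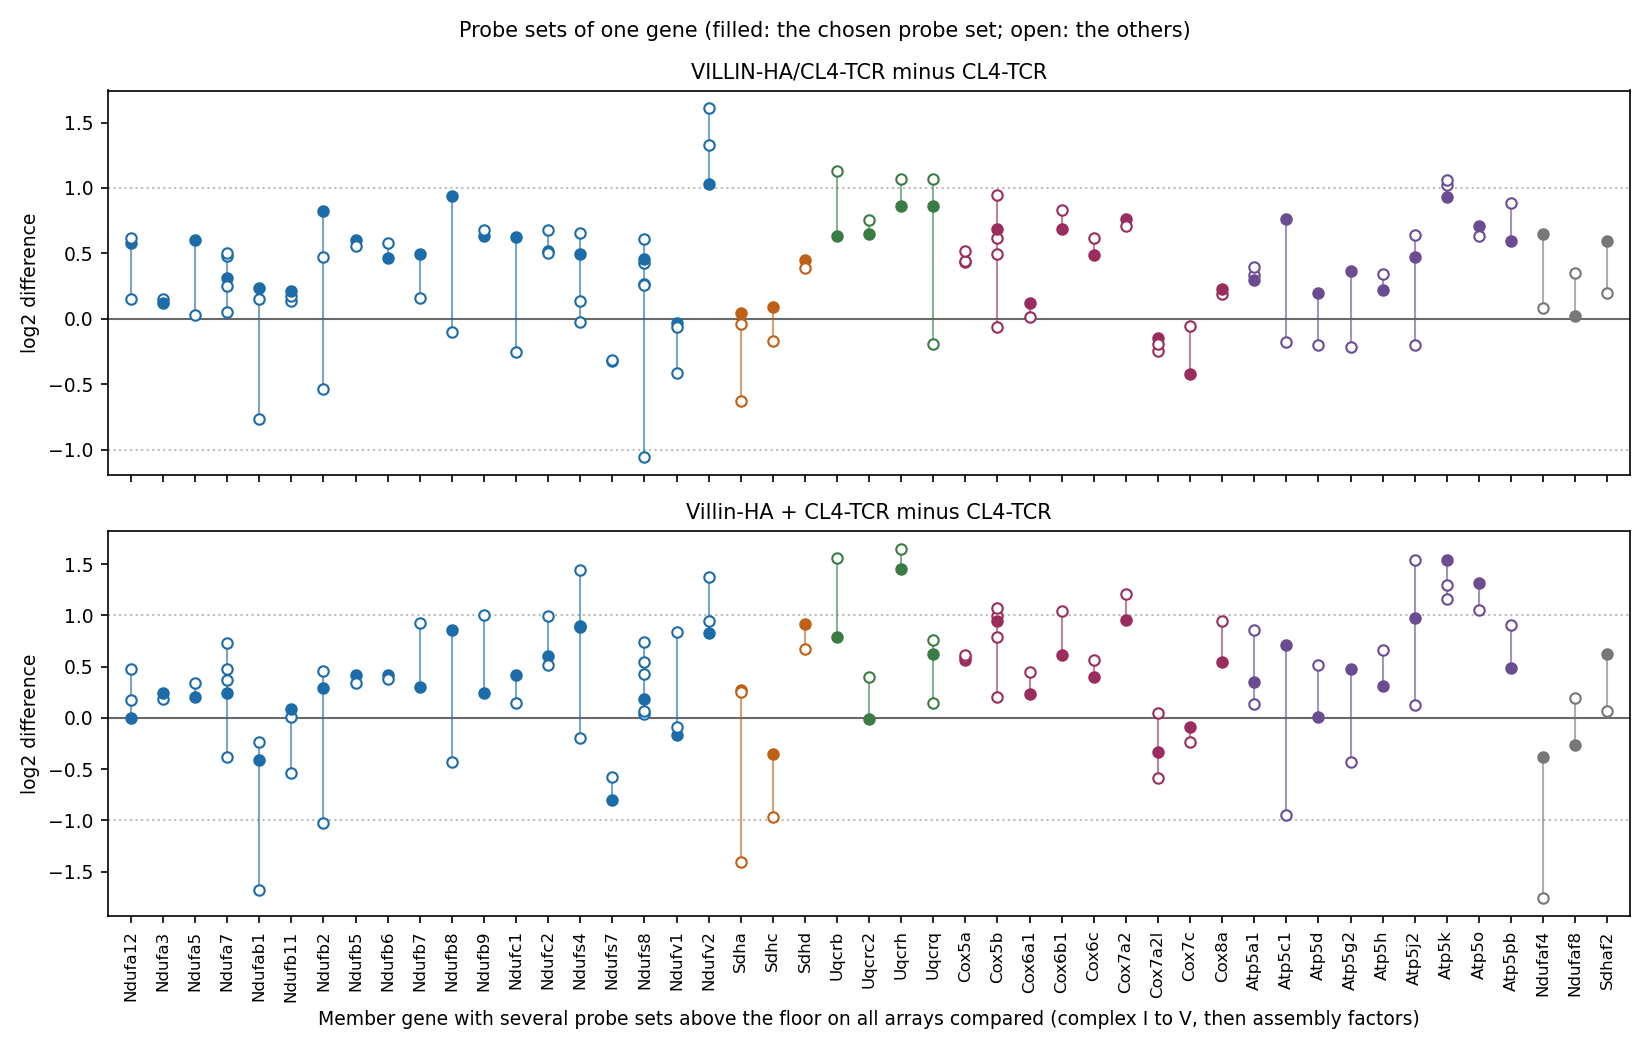
Log2 difference from CL4-TCR of every probe set (filled for the one that represents the gene, open for the others) of members with several probe sets above the floor, VILLIN-HA/CL4-TCR above and Villin-HA + CL4-TCR below. Ndufv2, Uqcrh and Atp5k keep all probe sets above 0, while Sdha, Ndufb2 and Ndufab1 have probe sets on either side of 0 in at least 1 comparison.

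Around the complexes, genes of electron delivery and transport were examined in the same way. Of 14 and 15 measured, 13 and 13 differed upward, with medians of 0.53 and 0.67, and 1 of 14 and 3 of 15 were counted higher, beside 7.43% and 11.9% of all genes. Cycs, cytochrome c, had 4662, 6645 and 7404. Etfb, a subunit of the flavoprotein that brings in electrons from fatty acid oxidation, had 216, 417 and 637, and Vdac3, a pore of the outer membrane, 999, 2032 and 2300.5. All were lowest without HA, and Vdac3 passed 2-fold on both HA arrays, at 1.02 and 1.20. Coq7, an enzyme of ubiquinone synthesis, had 129.7, 219.7 and 359.

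Of 12 citric acid cycle genes, 10 and 11 differed upward, with medians of 0.30 and 0.19. Idh3a, of the NAD-dependent isocitrate dehydrogenase, gave 674, 1058 and 1630.3, counted higher on Villin-HA + CL4-TCR at 1.27. Fh1, fumarate hydratase, gave 1142, 2056 and 1965.

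Assembly factors outside the member names, in a list that also holds the inhibitor Atpif1, were more evenly split. In this list 17 and 16 of 28 were upward, with medians of 0.08 and 0.04. At 2-fold 1 and 3 were counted higher, beside 7.43% and 11.9% of all genes. Atpif1, the inhibitor of ATP synthase run in reverse, stood out with 412, 1765 and 1211, the highest difference of its list at 2.10 and 1.56, though another of its probe sets gave 0.27 and -0.38. Oxa1l, which inserts proteins into the inner membrane, and Cmc1, a cytochrome oxidase factor, were counted higher on Villin-HA + CL4-TCR alone, with 162, 187 and 354 and 435, 655 and 873.

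Genes that copy and express mitochondrial DNA had 7 and 3 of 12 upward and medians of 0.05 and -0.11. Slirp, which stabilises mitochondrial messages, had 319.7, 837 and 703, counted higher on both HA arrays. Polrmt, the mitochondrial RNA polymerase, had 825, 638 and 266 and was counted lower on Villin-HA + CL4-TCR, at -1.63. The one mitochondria-encoded subunit matched here, ND5 of complex I, gave 3209, 3053 and 3829, differences of -0.07 and 0.25.

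The regulators of mitochondrial biogenesis were split, with 4 and 3 of 9 upward and medians of -0.09 and -0.13. Ppargc1b, a coactivator of the PGC-1 family, had 396, 181 and 114, and Pprc1, its relative, 684, 467 and 169. Both were highest without HA and lowest on Villin-HA + CL4-TCR, with differences there of -1.79 and -2.02. Nrf1 and Gabpa, which encode the factors whose motifs were searched, gave 203, 169.6 and 237 and 651, 932 and 745. Neither reached 2-fold in any comparison.

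**Figure D5:**
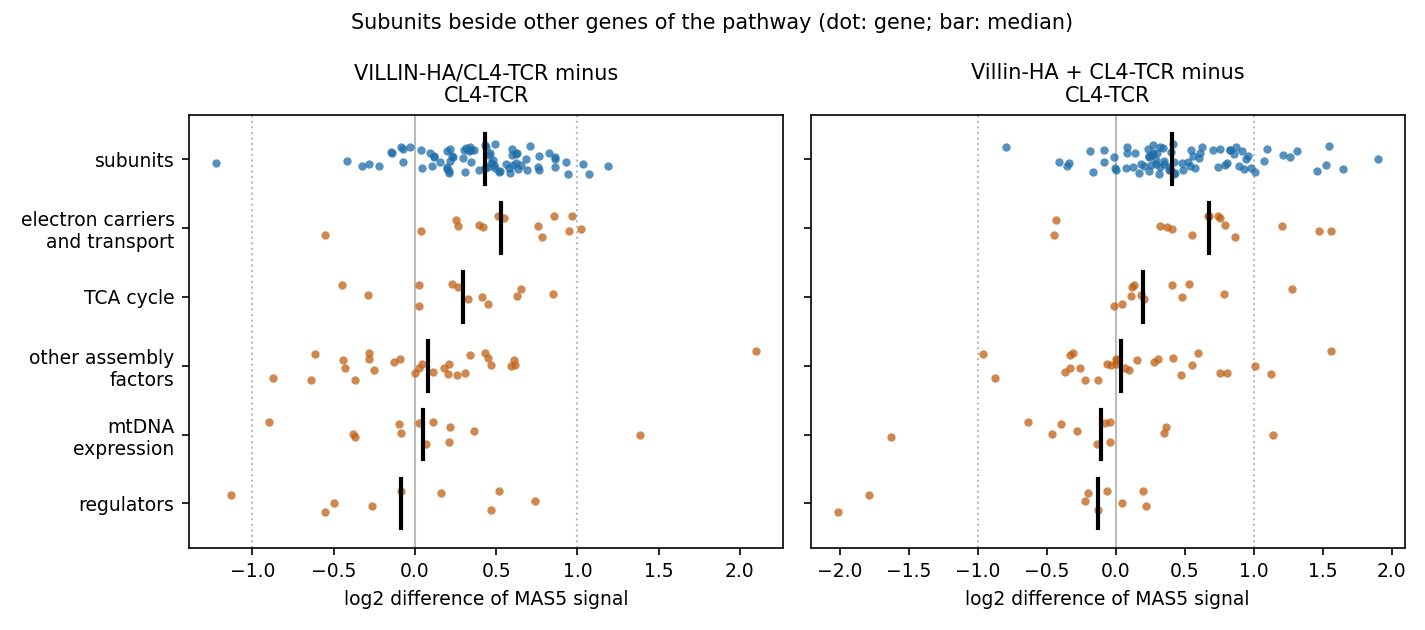
Log2 difference from CL4-TCR of the subunits (blue) and of 5 lists of other genes of the pathway (orange), with each list's median as a bar, for VILLIN-HA/CL4-TCR on the left and Villin-HA + CL4-TCR on the right. Subunits, electron carriers and citric acid cycle genes have medians between 0.19 and 0.67. The other assembly factors (with Atpif1), mitochondrial DNA expression and the regulators lie between -0.13 and 0.08.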

How the data were processed

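RNA was extracted with RNeasy and biotin-labelled cRNA was made from 6 µg of total RNA, per the labels' protocols. The authors deposited 1 intensity per probe set, made with MAS5 according to the submitters' processing notes. Its 2% trimmed mean is 150 on each of the 3 arrays, which hides any change common to most genes. The MAS5 version and background correction were not given in the sources used here. Presence calls were not used here. Of 45101 probe sets, 34958 have 1 gene symbol in the platform annotation, 932 several and 9211 none. Symbols were updated through the GRCm38.p6 RefSeq table, which held 34754 of them.

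The 1 array per group gives no replicate error, and the number of arrays limits the precision. No test, p-value or standard error was computed: differences are log2 ratios of floored intensity values, described by counts and medians beside those of all measured genes. Members, gene lists and marker lists were chosen with earlier results of these data known. Named genes are members counted at 2-fold, the 2 highest and 2 lowest per complex, core, regulatory, paralogous and tissue-specific subunits, members whose probe sets disagree by more than 1, and the leading genes of the other pathway lists. Promoter windows are 250 bases upstream. Alternatives covered the floor, the scaling, the choice of probe set, the member list and the fold threshold. The counting was checked on simulated data with planted changes well beyond 2-fold in genes well above the floor. That check did not cover changes near or below 2-fold, or signals near the floor. Python 3.11.15, numpy 2.4.6, pandas 2.3.3 and matplotlib 3.10.9 were used.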

Additional observations from a re-analysis of the deposited data

How the results depend on the processing

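Of 180 alternative medians, 173 kept their direction and moved by less than the SD between probe sets. Of 96 alternative counts 77 stayed within 1.5 times. Some of these could not move by construction, such as complex medians with assembly factors left out. That SD is of single genes and close in size to the members' medians against CL4-TCR, so staying within it is a loose criterion. The members' median ranged from 0.34 to 0.49 between VILLIN-HA/CL4-TCR and CL4-TCR, and from 0.21 to 0.53 for the other HA array. At 1.5-fold, the members higher and lower were 28 and 2, 33 and 2, and, between the HA arrays, 4 and 16. Leaving out probe sets whose identifiers end in _s_at, _x_at or _a_at gave 7 members higher and a complex III median of 1.07 on VILLIN-HA/CL4-TCR, 1 lower on Villin-HA + CL4-TCR, and between the HA arrays 23 above 0 and a complex I median of -0.12, which reversed. The 1 member lower on VILLIN-HA/CL4-TCR, Cox8c, dropped to 0 under a 65th-percentile floor, with no floor and with tissue isoforms left out. On Villin-HA + CL4-TCR, 1 member was lower with arrays scaled to the same median or with the median over probe sets. Between the HA arrays, the 5 lower became 2 with the higher floor, with same-median scaling or without tissue isoforms, and the 1 higher became 0 after quantile normalization or without assembly factors. There, same-median scaling reversed the medians of the members (0.20) and of complexes II (0.089), III (0.091), IV (0.043) and V (0.14). Where no construction of the alternative shows it, the cause was not tested. Leaving out assembly factors, counting Ndufa4 in complex IV, taking floor and probe sets from the arrays compared, and the count above 0 were added after seeing the data. No paired analysis was possible because each group holds 1 array. Signals near the floor of 31.7 limit what can be said of the tissue isoforms.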

Other observations

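The X-linked members, Ndufa1 and Ndufb11, both of complex I, had signals of 5906, 7462 and 7376 and of 4575, 5297 and 4843. Xist, the RNA of the inactive X chromosome, gave 5443, 2.5 and 1339 on the same arrays, and the Y-linked Eif2s3y gave 13.4, 1496 and 747. The VILLIN-HA/CL4-TCR array thus had Xist below the floor and the CL4-TCR array Eif2s3y below it, while both were above it on Villin-HA + CL4-TCR. The labels give no sex, and its part in the members' differences was not tested.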
